A study of Mus musculus with 4 samples.

Results

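The 9 genes described here are 7 globin genes, the haem enzyme gene *Alas2* and the transcription factor gene *Klf1*. The globin genes are the embryonic *Hbb-bh1*, *Hba-x* and *Hbb-y* and the adult-type *Hba-a1*, *Hba-a2*, *Hbb-bt* and *Hbb-bs*. The members were picked by gene name, with earlier results of these data known, and the rule itself uses no measured value. They are 9 of the 19616 genes listed in at least 1 of the count tables. The EHF table lists all 9. The MS-LS table lists 6 and leaves out *Hbb-bt*, *Hbb-bs* and *Alas2*. The OB-EB table lists 4, which are *Hbb-bh1*, *Hba-a2*, *Hbb-bs* and *Klf1*. A gene that a table does not list is called unlisted and is not read as 0, because nearly all listed genes had a UMI in at least 3 cells of their library.

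The cells came from mouse embryos at mid to late streak (MS-LS), at no bud to early bud (OB-EB) and at early head fold (EHF). Embryos of all groups had the genotype TnEGP-CreERT2/+ with R26Rtdtomato/R26Rtdtomato, and all were exposed to tamoxifen, given to the mothers by gavage at 0.08 mg per body weight. The MS-LS embryos were collected at E6+21h after tamoxifen at E6+5h. For OB-EB the times were E7+3h and E6+21h, and for EHF they were E7+14h and E7+7h. The *T* allele drives a Cre that acts only with tamoxifen, in cells that express *T*, such as those of the primitive streak. The reporter therefore marks cells that expressed *T* from the tamoxifen dose onward, and their descendants. Descendants of cells that left the streak before the dose are not marked. No group lacked the alleles or tamoxifen. Each stage is 1 library of several pooled embryos, and cells were not assigned to embryos.

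The libraries held 3635, 3994 and 3494 cells for MS-LS, OB-EB and EHF, with medians of 4251, 2620.5 and 5584 UMIs per cell. A UMI is a tag that counts 1 captured transcript molecule, and levels are given as UMIs per 1000000 UMIs of the same cells (CPM). The assay reads the 3′ end of a transcript, so these counts do not scale with transcript length. With 1 library per stage there was no replicate, so no test was made. Brackets give exact 95% intervals that cover counting error only. The EHF counts were deposited as a pair of tables that were equal in all 65128160 places and were counted once. The stages shared 12 to 18 cell barcodes.

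Haemoglobin is built from α-like and β-like globin chains, each of which holds a haem group. The first red cells of the mouse, the primitive erythroid cells, arise in the yolk sac from extraembryonic mesoderm and are known to make the embryonic chains ζ (*Hba-x*), βH1 (*Hbb-bh1*) and εy (*Hbb-y*) as well as adult α chains. *Alas2* encodes the erythroid form of the enzyme for the first step of haem synthesis. *Klf1* encodes an erythroid zinc finger factor that binds CACCC boxes of globin and haem genes.

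The members lie at 4 places in the genome (GRCm38, GENCODE M21 gene models). The β-like genes lie on the minus strand of chromosome 7, where *Hbb-y* spans chr7:103851749-103853216, *Hbb-bh1* chr7:103841637-103843164, *Hbb-bs* chr7:103826534-103828096 and *Hbb-bt* chr7:103812524-103813996. The α-like genes lie on the plus strand of chromosome 11, where *Hba-x* spans chr11:32276400-32278116, *Hba-a1* chr11:32283511-32284465 and *Hba-a2* chr11:32296489-32297298. *Alas2* spans chrX:150547375-150570638 and *Klf1* chr8:84901928-84905291, both on the plus strand. All 9 gene models are protein coding.

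The 120 bases before the RefSeq transcript start are shown for an embryonic and an adult gene of each globin locus, because these genes differed in level at EHF, and for *Alas2* and *Klf1* because they are the non-globin members. The RefSeq promoter table (GRCm38.p6) held 8 of the 9 members. It had no entry for *Hbb-bh1*, so the stretch before that gene was not examined. The stretches lie at chr11:32276480-32276599 (*Hba-x*) and chr11:32283552-32283671 (*Hba-a1*), at chr7:103853208-103853327 (*Hbb-y*) and chr7:103827929-103828048 (*Hbb-bs*), and at chrX:150547297-150547416 (*Alas2*) and chr8:84901862-84901981 (*Klf1*), and each is written 5′ to 3′ on its gene's strand. These starts lie downstream of the GENCODE gene starts given above, so all 6 stretches overlap the gene spans, and those of *Hba-x*, *Hba-a1* and *Hbb-bs* lie within them. Capitals mark the CACCC box, the letters GATAA that GATA factors are known to bind, the promoter element CCAAT and the TATAA letters of a TATA box. Each was searched on both strands, so a motif on the other strand appears as its reverse complement, and in *Alas2* the 3 copies of the CACCC box adjoin.
Hba-x: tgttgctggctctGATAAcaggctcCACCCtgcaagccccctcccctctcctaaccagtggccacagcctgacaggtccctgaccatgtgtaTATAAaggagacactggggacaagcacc
Hba-a1: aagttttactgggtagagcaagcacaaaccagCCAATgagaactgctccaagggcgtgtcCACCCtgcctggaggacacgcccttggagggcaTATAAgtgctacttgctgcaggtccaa
Hbb-y: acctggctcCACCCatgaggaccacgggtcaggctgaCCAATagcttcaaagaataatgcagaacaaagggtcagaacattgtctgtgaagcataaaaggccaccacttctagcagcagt
Hbb-bs: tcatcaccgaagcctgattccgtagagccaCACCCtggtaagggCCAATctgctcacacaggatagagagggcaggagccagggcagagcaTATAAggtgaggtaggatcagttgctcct
Alas2: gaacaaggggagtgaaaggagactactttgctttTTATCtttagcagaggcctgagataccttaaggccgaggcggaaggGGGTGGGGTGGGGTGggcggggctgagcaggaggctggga
Klf1: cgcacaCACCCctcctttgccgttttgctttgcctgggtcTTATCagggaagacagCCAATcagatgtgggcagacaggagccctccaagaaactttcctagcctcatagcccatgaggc
All 8 members in the table held CACCC in this stretch, against 31.7% of the 32851 promoters of the same length. GATAA was held by 3 members (*Hba-x*, *Alas2* and *Klf1*), against 10.5% of all promoters. CCAAT was held by 6 members, against 21.3%, and TATAA by 5, against 11.8%. The stretches of *Hba-a1* and *Hba-a2* were equal over all 117 bases that could be aligned, and those of *Hbb-bt* and *Hbb-bs* over 88 of 119. A match describes the letters of the window and does not show that a factor binds there.

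The globin copies limit what can be counted for the adult-type genes. Of the 98-base windows in the last 500 bases of *Hba-a1* transcripts, 80.9% were also found in *Hba-a2*, and 77.8% of the *Hba-a2* windows were found in *Hba-a1*. For *Hbb-bt* and *Hbb-bs* the shares were 60.3% and 52.8%. No window of *Hbb-bh1*, *Hba-x*, *Hbb-y*, *Alas2* or *Klf1* was shared with another gene. Reads that match a pair of genes equally are not assigned to either by this counting, so the levels of the 4 adult-type genes and the split within each pair are uncertain. How many reads this concerns was not measured.

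The first comparison asked when the members appeared. At MS-LS they were at trace level in 3635 cells. There were 14 UMIs of *Hbb-bh1*, 12 of *Hba-x*, 25 of *Hbb-y*, 7 of *Hba-a1*, 5 of *Hba-a2* and 7 of *Klf1*. The globin UMIs came from 35 cells, of which 1 was in the cluster with blood markers. This cluster, named blood progenitor-like (71 cells, with *Lmo2*, *Tal1*, *Kdr* and *Etv2* among its leading genes), held a single *Hba-a2* UMI. None of its cells held an *Hbb-bh1* UMI, which at 3 counts allows up to 4.23% of cells with a UMI and sets no limit on cells that express the gene below detection. The naming score of this cluster was 1.94 for blood progenitors and 1.75 for endothelium (a mean log2 excess of the markers over all other cells).

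The MS-LS globin counts rested on few cells. One cell of a nascent mesoderm-like cluster held 23 globin UMIs of 4593 in all, with 6 of *Hbb-bh1*, 5 of *Hba-x*, 8 of *Hbb-y*, 3 of *Hba-a1* and 1 of *Hba-a2*. It had 6 UMIs of *Mesp1*, a nascent mesoderm gene, and none of *Gata1*, the gene of the main erythroid transcription factor. A second cell, in an Exe ectoderm-like cluster, held 7 globin UMIs of 10429 and was among the 5% of cells with the highest doublet scores. Neither barcode was in the EHF table. Outside these cells, no cell had more than 1 globin UMI, and *Hbb-y* was the most frequent with 15 UMIs in 15 cells, against 6 for *Hbb-bh1* and 6 for *Hba-x*.

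At OB-EB, *Hbb-bh1* was found in blood progenitor-like cells and in no other cell. The library held 8 *Hbb-bh1* UMIs in 6 cells, at most 2 in a cell, and all were in the blood progenitor-like cluster of 150 cells. This is 16.9 CPM [7.31 to 33.3] in that cluster, and 4% of its cells [1.48 to 8.50]. The other 3844 cells, at a median of 2616.5 UMIs, held none, which at 3 counts allows up to 0.0780% of cells with a UMI. The cluster had *Lmo2*, *Runx1* and *Kdr* among its leading genes and scores of 2.25 for blood progenitors and 1.94 for endothelium, and 15 of its cells held a *Gata1* UMI, against none of the 71 blood progenitor-like cells at MS-LS. *Klf1* had 7 UMIs in 7 cells, of which 2 were in this cluster. *Hba-a2* had 3 UMIs, none in the cluster, and *Hbb-bs* had 3, of which 1 was in it. *Hba-x*, *Hbb-y*, *Hba-a1*, *Hbb-bt* and *Alas2* were unlisted, so whether they preceded or followed *Hbb-bh1* at this stage was not measured.

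At EHF all 9 members were measured, and *Hbb-bh1* was far above the rest. The 3494 cells held 5061 UMIs of *Hbb-bh1*, 265 of *Hba-x*, 74 of *Hbb-y*, 129 of *Hba-a1*, 40 of *Hba-a2*, 37 of *Hbb-bt*, 70 of *Hbb-bs*, 82 of *Alas2* and 130 of *Klf1*. Over all cells, *Hbb-bh1* was at 0.779 CPM [0.426 to 1.31] at MS-LS, 0.657 CPM [0.284 to 1.29] at OB-EB and 248 CPM [242 to 255] at EHF. The intervals of the earlier stages overlap, and that of EHF lies above both. *Klf1* was at 0.390 CPM [0.157 to 0.803], 0.575 CPM [0.231 to 1.18] and 6.38 CPM [5.33 to 7.58] in the same order.

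Cells with at least 10 globin UMIs made up 0.0275% of the MS-LS library, which was the cell described above, none of the OB-EB library and 4.44% of the EHF library [3.78 to 5.17]. Sums of globins between stages were compared over the genes that both tables list. Over *Hbb-bh1*, *Hba-a2* and *Hbb-bs*, EHF was above OB-EB by 7.79 on the log2 scale [7.04 to 8.66]. Over *Hbb-bh1* and *Hba-a2*, OB-EB held 11 UMIs and MS-LS 19, a log2 ratio of -0.23 [-1.45 to 0.92]. A pool with fewer erythroid cells cannot be told apart from less globin RNA per cell in these totals.

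**Figure D1:**
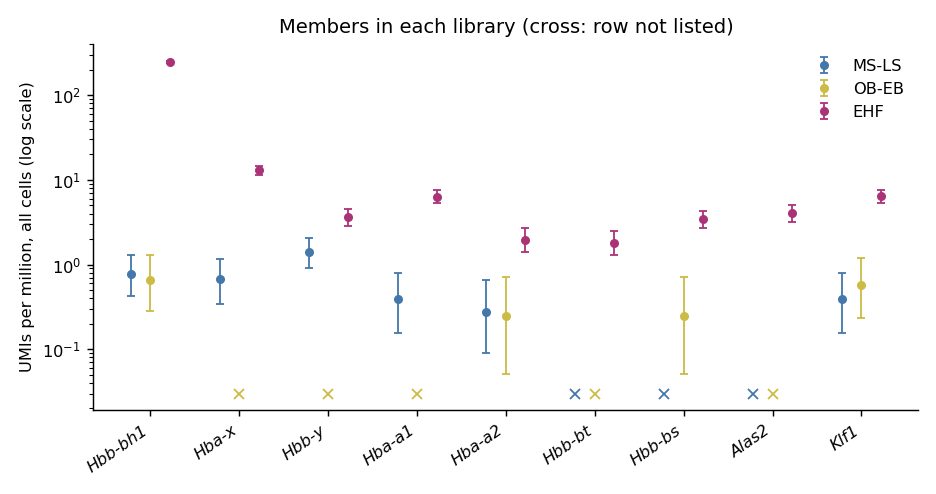
Level of each member over all cells of each library, in CPM on a log axis; points are the libraries, bars are exact 95% Poisson intervals and crosses mark unlisted genes. *Hbb-bh1* stands at 248 CPM at EHF and below 1 CPM at MS-LS and OB-EB.

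The second comparison asked which EHF cells held the members and how much other cells held. Cells were clustered without the 9 members, and classes were named from markers that include none of them. An erythroid-like class of 282 cells was found, made of cluster 9 (127 cells), cluster 19 (99 cells) and cluster 26 (56 cells). *Gata1*, *Gfi1b*, *Smim1* and *Cited4* marked all 3 clusters, and *Epor* (the erythropoietin receptor) also marked cluster 19. No erythroid-like class was found at MS-LS or OB-EB. The tdTomato reporter was at 7 UMIs in these 282 cells (5.22 CPM [2.10 to 10.7]) and at 5 UMIs in 514 Exe ectoderm-like cells (1.41 CPM [0.458 to 3.29]). A low reporter count does not show that cells lack a streak origin, since cells that left the streak before the dose are not marked.

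*Hbb-bh1* was the main globin of the erythroid-like cells. Its UMIs per cell ran from 0 to 159 with a median of 9 and quartiles of 2 and 21.75, and 237 of the 282 cells had at least 1. The class held 90.8% of all *Hbb-bh1* UMIs of the library. The level was 3425 CPM [3327 to 3526], and *Hbb-bh1* made up 90.4% of all globin UMIs of the class [89.6 to 91.2]. The distribution was skewed, and the 29 cells with most UMIs held 41.0% of the *Hbb-bh1* of the class. All globins together were 0.379% of the UMIs of the class and at most 4.72% of those of a single cell.

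The other members of the class stood well below *Hbb-bh1*. *Hba-x* was at 180 CPM [158 to 204] with a UMI in 22.3% of cells. *Klf1* (80.5 CPM [66.03 to 97.2], 29.8% of cells) and *Hba-a1* (79.0 CPM [64.7 to 95.6]) came next, and their intervals overlap. *Hbb-y* (50.7 CPM [39.4 to 64.2], 11.0% of cells) and *Alas2* (49.9 CPM [38.7 to 63.4], 20.2% of cells) had overlapping intervals. *Hbb-bt* (18.6 CPM [12.1 to 27.5]), *Hba-a2* (17.9 CPM [11.5 to 26.6]) and *Hbb-bs* (16.4 CPM [10.3 to 24.8]) were the lowest, and their intervals overlap too. By these intervals the order of the levels is *Hbb-bh1*, *Hba-x*, the pair *Klf1* and *Hba-a1*, the pair *Hbb-y* and *Alas2*, and the 3 lowest adult-type genes. The place of *Hba-a1* is not settled. Without the top 2 cells of each gene it was at 59.3 CPM [46.9 to 73.9], which overlaps *Alas2* at 46.6 CPM [35.7 to 59.7]. The windows it shares with *Hba-a2* also leave its level uncertain.

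The α-like and β-like sums were unequal. The class held 4711 β-like and 371 α-like UMIs, a ratio of 12.7. *Hba-x* made up 65.0% of the α-like UMIs [59.9 to 69.8], and *Hbb-y* made up 1.44% of the β-like UMIs. The adult-type genes made up 3.48% of all globin UMIs. *Hba-a1* and *Hba-a2* share most of their windows, and the part of this in the α-like sum was not tested. *Hba-x*, whose windows were unique, was on its own at 5.24 UMIs per 100 of *Hbb-bh1* [4.59 to 5.97].

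Every other class held some *Hbb-bh1*. In the Exe ectoderm-like class (514 cells), which does not form blood, 12.3% of cells had a UMI [9.55 to 15.4], at a median depth of 6923 UMIs against 4787.5 in the erythroid-like class. With each cell thinned to 1500 UMIs, the share was 2.82% [1.55 to 4.68] of 497 Exe ectoderm-like cells and 72.6% [66.8 to 77.9] of 263 erythroid-like cells. Thinning left out 17 and 19 shallower cells. The class outside the erythroid-like cells with the highest *Hbb-bh1* level was streak-like at 51.2 CPM [39.6 to 65.2], of which a single cell gave 38 of the 66 UMIs. The lowest was neuroectoderm-like at 17.0 CPM [11.2 to 24.7]. The endothelium-like class stood at 44.8 CPM [29.3 to 65.7], and its 26 UMIs included 12 in a single cell.

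*Hbb-bh1* in erythroid-like cells exceeded the Exe ectoderm-like level by 7.48 on the log2 scale [7.13 to 7.85]. The log2 ratio was 7.73 for *Hba-x* [6.16 to 10.0], 7.49 for *Hbb-y* [4.96 to 12.8] and 7.47 for *Alas2* [4.94 to 12.8]. It was 6.16 for *Klf1* [4.76 to 8.06] and 6.13 for *Hba-a1* [4.73 to 8.03]. The lowest ratios were 4.99 for *Hba-a2* [2.98 to 8.11], 4.46 for *Hbb-bt* [2.75 to 6.83] and 3.54 for *Hbb-bs* [2.10 to 5.30]. All 9 intervals lie above 0. The Exe ectoderm-like counts behind them were 68 for *Hbb-bh1* and 1 to 5 for each other member.

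**Figure D2:**
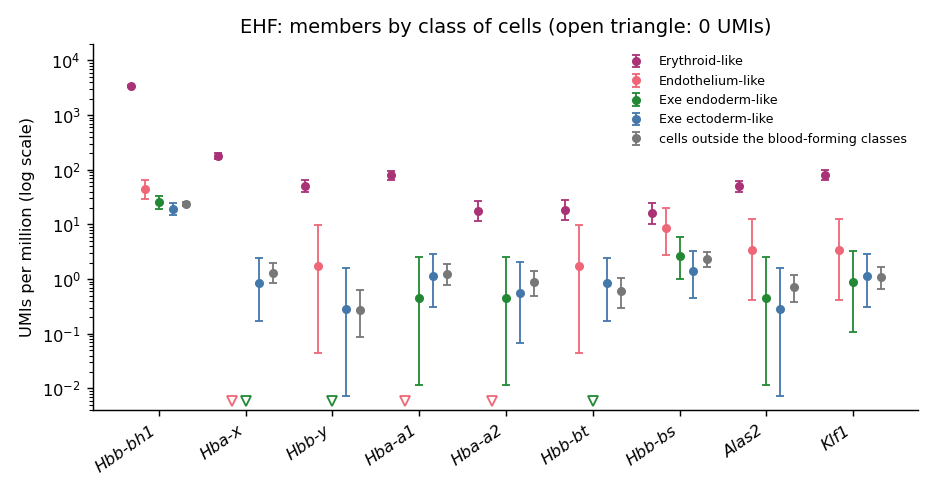
Level of each member in 5 sets of EHF cells, in CPM on a log axis with exact 95% Poisson intervals; open triangles mark 0 UMIs. Each member is highest in the erythroid-like class, and *Hbb-bs* has the smallest distance between that class and the others.

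The low counts in other cells did not keep the proportions of the erythroid-like cells for all members. The 3122 cells outside the erythroid-like and endothelium-like classes held 439 *Hbb-bh1* UMIs, of which 280 were the only one in their cell. For 100 *Hbb-bh1* UMIs they held 5.47 of *Hba-x* [3.47 to 8.24], against 5.24 [4.59 to 5.97] in erythroid-like cells, and 1.14 of *Hbb-y* [0.37 to 2.68], against 1.48 [1.15 to 1.88]. These intervals overlap. The adult-type genes were different, with 9.79 *Hbb-bs* UMIs per 100 [6.99 to 13.4] outside and 0.479 [0.2997 to 0.726] inside, 3.64 of *Hba-a2* [2.06 to 5.99] against 0.522 [0.334 to 0.778], and 2.51 of *Hbb-bt* [1.24 to 4.53] against 0.544 [0.352 to 0.804]. For *Hba-a1* the values were 5.24 [3.29 to 7.96] and 2.31 [1.88 to 2.80]. The 43 *Hbb-bs* UMIs outside came from 41 cells and were spread over all classes, including 5 in Exe ectoderm-like and 6 in Exe endoderm-like cells. In the endothelium-like class *Hbb-bs* was at 8.62 CPM [2.80 to 20.1], which overlaps its erythroid-like level. The source of the counts in these other cells was not tested.

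Outside the erythroid-like class, 6 cells held 5 or more *Hbb-bh1* UMIs. They held 38, 23, 16, 12, 10 and 5, in streak-like, nascent mesoderm-like, Exe endoderm-like, endothelium-like, epiblast-like and paraxial mesoderm-like clusters, and made up 22.4% of all *Hbb-bh1* UMIs outside the class. All 6 had more UMIs than the median of their cluster, with totals of 6425 to 19078. Of the 6, 4 held a *Gata1* UMI, against 2.93% of all cells outside the class, and 5 were among the 5% of EHF cells with the highest doublet scores.

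The third comparison was among the erythroid-like clusters. Cluster 19 had more of most members than cluster 9 at like depth (medians of 5270 and 5154 UMIs per cell). *Hbb-bh1* was at 4531 CPM in cluster 19 and 1810 CPM in cluster 9, a log2 ratio of 1.32 [1.22 to 1.42]. Its median was 17 UMIs per cell against 5, and 4 of 99 cells lacked it against 31 of 127. The distance was larger for the α-like genes. *Hba-x* was at 324 against 26.6 CPM (log2 ratio 3.602 [2.90 to 4.39]) and *Hba-a1* at 158 against 14.8 CPM (3.42 [2.47 to 4.53]). *Hba-a2* had 16 UMIs in cluster 19 and none in cluster 9, so its level was at least 2.74 higher on the log2 scale, with the empty cluster set to 3 UMIs, and at least 2.07 higher without the top cell of each cluster. In cluster 9 a single cell held 8 of the 18 *Hba-x* UMIs, and without the top cell of each cluster the *Hba-x* ratio was 4.12 [3.20 to 5.21].

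*Klf1* was also higher in cluster 19, at 123 against 34.0 CPM (log2 ratio 1.85 [1.15 to 2.60]), and was found in 51.5% against 14.96% of cells. *Alas2* was at 66.9 against 37.0 CPM (0.86 [0.08 to 1.65]), and without the top cell of each cluster the interval included 0 (0.80 [-0.01 to 1.62]). *Hbb-y* was at 50.2 CPM in cluster 19 and 57.7 CPM in cluster 9 (-0.20 [-0.97 to 0.54]), an interval below those of the other embryonic globins. In cluster 9, 21 of its 39 UMIs came from 2 cells with 13 and 8 UMIs, and without them its level there was 27.1 CPM. Without the top 2 cells of each cluster the *Hbb-y* ratio was 0.41 [-0.60 to 1.43]. That interval overlaps the *Hbb-bh1* one (1.31 [1.21 to 1.42]) and lies below the *Hba-x* one (4.52 [3.43 to 5.86]). A difference of *Hbb-y* from *Hbb-bh1* here thus rests on few cells. *Hbb-bt* (-0.31 [-1.70 to 1.003]) and *Hbb-bs* (1.33 [-0.35 to 3.23]) had intervals that include 0. The β-like to α-like ratio was 45.8 in cluster 9 and 9.03 in cluster 19, and *Hba-x* made up a like share of the α-like UMIs in both, 64.3% [44.1 to 81.4] and 63.3% [57.3 to 69.0].

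Cluster 26 had the highest *Hbb-bh1* level, 7307 CPM, and the lowest depth, a median of 1931.5 UMIs per cell. Its globins were 0.792% of its UMIs, against 0.513% in cluster 19 and 0.194% in cluster 9. *Klf1* was at 148 CPM in it, and cluster 19 differed from it by a log2 ratio of -0.27 [-1.03 to 0.55]. *Hba-x* was at 383 CPM, but 29 of its 49 UMIs came from 1 cell. Without that cell it was at 161 CPM [98.4 to 248.9], and leaving out the top cell of both clusters took the ratio of cluster 19 to cluster 26, on the log2 scale, from -0.24 [-0.71 to 0.25] to 0.69 [0.003 to 1.44]. *Hbb-y* had 2 UMIs in it. The part of low depth in these levels was not tested. Without cluster 26, *Hbb-bh1* in the class was at 3016 CPM.

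Among other genes compared between the clusters, *Gata1* and *Tal1*, which act early in the lineage, were alike in clusters 19 and 9 (log2 ratios 0.11 [-0.25 to 0.47] and -0.01 [-0.49 to 0.47]). *Gata2*, a gene of progenitors, was lower in cluster 19 (-1.85 [-2.76 to -1.03]). The biliverdin reductase gene *Blvrb* (2.90 [2.23 to 3.64]) was higher. These genes could take part in the clustering, so their values describe the clusters. Of the 42 haem, iron, regulator and membrane genes tested between these clusters, 8 were at least 2-fold higher in cluster 19 and 1 was lower, against 2.45% and 2.51% of the 5461 genes tested in all.

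**Figure D3:**
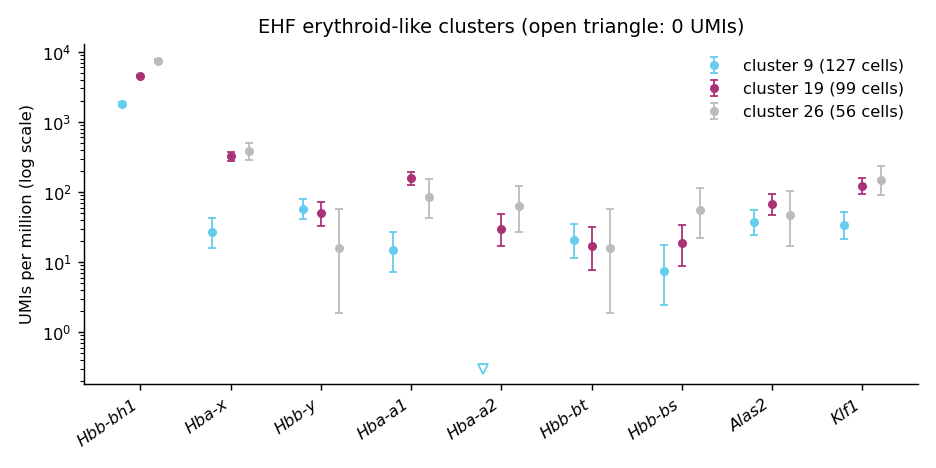
Level of each member in the 3 erythroid-like EHF clusters, in CPM on a log axis with exact 95% Poisson intervals; the open triangle marks 0 UMIs. The intervals of *Hba-x* and *Hba-a1* lie apart between clusters 9 and 19, while those of *Hbb-y* and *Hbb-bt* overlap.

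The fourth comparison asked in which order the members appeared within single erythroid-like cells. Cells were grouped by their *Hbb-bh1* level. The 45 cells with none included 26 with *Gata1*, 12 with *Klf1* (26.7% of them [14.6 to 41.9]), 3 with *Hba-x*, 4 with *Alas2* and 1 with *Hba-a1*. They also included 5 with *Hbb-y*, 4 with *Hbb-bt*, 2 with *Hbb-bs* and 0 with *Hba-a2*. The shares were 11.1% for *Hbb-y* and 8.89% for *Hbb-bt*, against 11.0% and 7.09% of the whole class. Most of the 45 cells (31) were in cluster 9. *Klf1* was at 75.9 CPM [43.4 to 123] in the 45 cells. It was at 94.6 CPM [62.9 to 137] in the 73 cells with over 50 *Hbb-bh1* UMIs per 10000, and these intervals overlap. The groups between were not alike. *Klf1* was at 38.8 CPM [20.03 to 67.7] in the 54 cells with up to 10 UMIs per 10000. In the 110 cells with 10 to 50 it was at 98.98 CPM [73.9 to 129.8], an interval above that of the 54 cells. Without the top 2 cells of each group, *Klf1* was at 54.6, 26.8, 89.7 and 85.5 CPM in rising order of *Hbb-bh1*.

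*Hba-x* and *Hba-a1* were found at high *Hbb-bh1*. *Hba-x* was at 33.2 CPM in cells with no *Hbb-bh1*, 6.46 CPM in the 54 cells with up to 10 UMIs per 10000, 120 CPM in the 110 cells with 10 to 50 and 571 CPM above 50. Without the top cell the first value was 9.72 CPM, and without the top 2 cells the last was 363 CPM. *Hba-a1* was at 14.2, 6.46, 70.4 and 216 CPM in the same groups, with 134 CPM in the last without its top 2 cells. *Hba-a2* had no UMI in the first groups and was at 17.1 and 50.7 CPM in the others, or 9.73 and 20.9 CPM without the top 2 cells. *Alas2* was at 18.98, 29.1, 64.7 and 67.6 CPM. *Hbb-y* was at 42.7, 19.4, 68.5 and 57.4 CPM. In the group of 10 to 50, 2 cells gave 21 of its 36 UMIs, and without the top 2 cells the values of the groups with 0, 10 to 50 and above 50 were 25.6, 29.1 and 31.5 CPM. *Hbb-bt* was at 18.98, 19.4, 19.03 and 16.9 CPM, from 4 to 10 UMIs in each group.

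**Figure D4:**
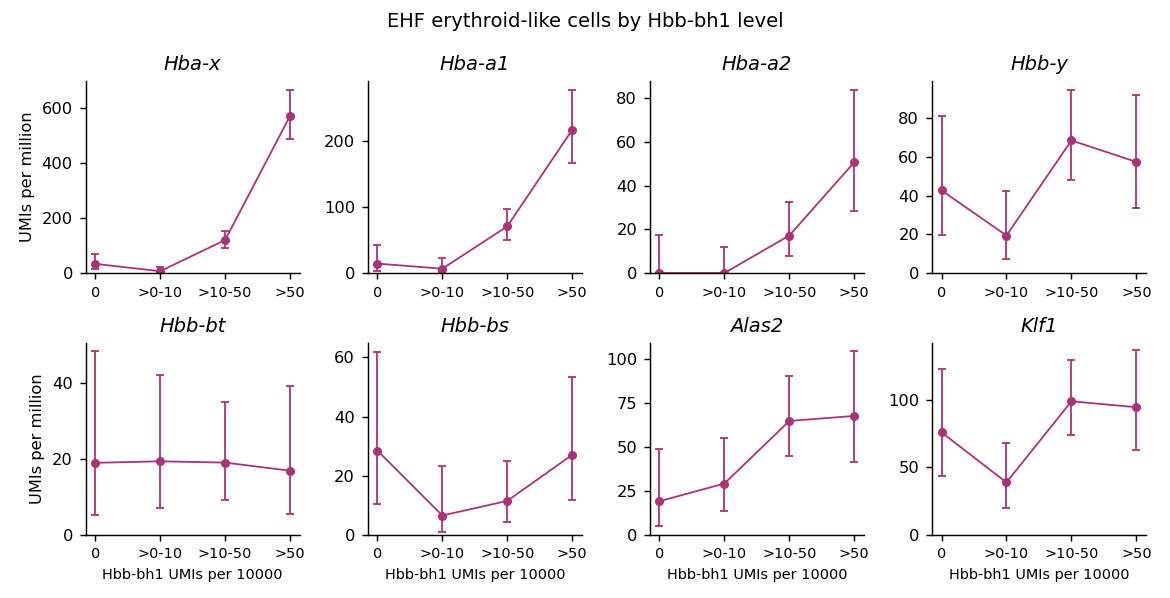
Level of each other member in EHF erythroid-like cells grouped by *Hbb-bh1* UMIs per 10000 (45, 54, 110 and 73 cells), in CPM with exact 95% Poisson intervals; axes start at 0 and differ between panels. *Hba-x*, *Hba-a1* and *Hba-a2* are highest in the group above 50, and *Hbb-bt* stays between 16.9 and 19.4 CPM.

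The overlap of members in single cells was counted after all cells were thinned to 1500 UMIs. Of the 40 cells with *Hba-x*, 37 also had *Hbb-bh1* (92.5% [79.6 to 98.4]), against 72.6% of all 263 cells, while 37 of the 191 cells with *Hbb-bh1* had *Hba-x* (19.4% [14.0 to 25.7]). Of the 22 *Hba-a1* cells, 21 had *Hbb-bh1* and 9 had *Hba-x*. Of the 16 *Alas2* cells, 15 had *Hbb-bh1* (93.8% [69.8 to 99.8]). The shares were 30 of 38 cells for *Klf1* (78.9% [62.7 to 90.4]) and 13 of 17 for *Hbb-y* (76.5% [50.1 to 93.2]). The intervals of these 3 genes include the share of all cells. A gene of higher level is found in more cells at a fixed depth, and *Hbb-bh1* had the highest level, and the part of level in this nesting was not tested.

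Over the 282 cells, correlations of log levels between members were weak to moderate. The highest was between *Hba-x* and *Hba-a1* (Pearson's r = 0.52), followed by *Hba-a1* with *Hba-a2* (0.43). *Hbb-bh1* was correlated with *Hba-x* (0.37) and *Hba-a1* (0.28) and hardly with *Hbb-y* (0.06), *Klf1* (0.10) or *Hbb-bt* (-0.03). These cells share a library and differ in depth, and the values are a description. The cell with most globin, in cluster 19, held 145 *Hbb-bh1*, 36 *Hba-x*, 19 *Hba-a1* and 6 *Hba-a2* UMIs of 5270. It gave 36 of the 265 *Hba-x* UMIs of the library.

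The sex of cells gave a partial view of differences between embryos. Of the erythroid-like cells, 132 were called female from *Xist*, 27 were called male from Y-linked genes and 123 could not be called. *Hbb-bh1* was at 2883 CPM [2760 to 3010] in the female and 2782 CPM [2522 to 3062] in the male cells, and the cells without a call stood above both at 4452 CPM. The mean numbers of *Hbb-bh1* UMIs per cell were closer, at 15.7, 15.5 and 17.1 in the same order. Cells without a call thus held fewer UMIs in all per cell, and the part of depth in their level was not tested. *Hba-x* was at 163 CPM [135 to 195] and 79.9 CPM [41.3 to 140], with 12 UMIs behind the latter.

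The fifth comparison placed *Alas2* and *Klf1* among the other genes of haem synthesis, iron handling, globin regulation and the red cell membrane. In EHF erythroid-like cells against the 3122 cells outside the blood-forming classes, 32 of the 58 list genes with at least 20 UMIs were at least 2-fold higher and 7 at least 2-fold lower. Over all 13391 genes these shares were 5.4% and 21.5%. Several of these genes (among them *Gata1*, *Gfi1b*, *Epor* and *Nfe2*, and *Tal1*, *Lmo2*, *Gata2* and *Lyl1* for progenitors) served to name classes, so their excess is not a finding.

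Haem synthesis genes were higher nearly along the whole pathway. Of 9 genes, 6 were at least 2-fold higher and 1 was lower, with a list median of 1.37 on the log2 scale against -0.15 for all genes. The first step was split between its isoforms. *Alas2* was at 49.9 CPM against 0.704 CPM outside (log2 ratio 6.15 [5.28 to 7.13]), and *Alas1*, the form of other tissues, had 1 UMI in the 282 cells and was at 7.48 CPM outside (-3.33 [-8.64 to -0.82]). *Cpox* (1.99 [1.75 to 2.23]), *Uros* (1.63 [0.99 to 2.24]), *Ppox* (1.46 [0.84 to 2.03]) and *Fech* (1.37 [0.96 to 1.76]), which inserts the iron, also passed the fold. *Alad* (0.99) and *Urod* (0.68) were the genes that passed it in neither direction. Within the class, *Cpox* (1.02 [0.57 to 1.48]) and *Ppox* (2.20 [0.86 to 3.796]) were more than 2-fold higher in cluster 19 than in cluster 9.

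Iron and haem handling was more mixed, with 4 of 18 genes higher and 3 lower (median 0.13). Higher were the mitochondrial iron carrier gene *Slc25a37* (2.35 [1.94 to 2.75]), its partner *Abcb10* (2.65 [2.26 to 3.02]), *Glrx5* (1.29 [1.18 to 1.40]) of iron-sulphur cluster assembly and *Blvrb* (3.01 [2.74 to 3.28]). Lower were the haem oxygenase gene *Hmox1* (-2.23 [-3.24 to -1.38]), the biliverdin reductase gene *Blvra* (-1.84 [-3.30 to -0.70]) and the iron exporter gene *Slc40a1* (-1.94 [-3.58 to -0.70]). *Ftl1*, of ferritin, was at 4552 against 4430 CPM, *Iscu* at 94.6 against 97.4 CPM and *Snx3*, which acts in transferrin receptor recycling, at 218 against 325 CPM. The transferrin receptor gene *Tfrc*, chosen after its values were seen, was at 61.9 CPM against 52.9 CPM (0.22 [-0.12 to 0.55]).

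**Figure D5:**
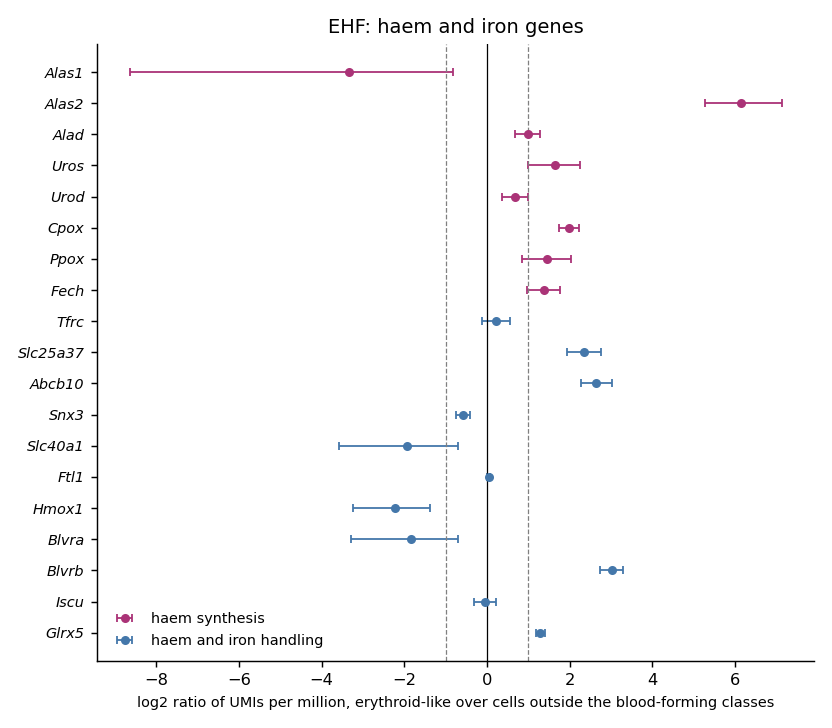
Log2 ratio of CPM, EHF erythroid-like cells over cells outside the blood-forming classes, for the haem synthesis and iron handling genes named in the text; bars are exact 95% intervals and dashed lines mark 2-fold. *Alas2* lies at 6.15 and *Alas1* at -3.33.

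Of the globin gene regulators, 14 of 22 were at least 2-fold higher, *Klf1* among them (6.21 [5.52 to 6.98], 80.5 against 1.08 CPM). Among the regulators other than *Klf1* that named no class, *Ikzf1* (6.94 [6.14 to 7.85]) and *Myb* (4.67 [4.03 to 5.33]) had the highest ratios. *Cbfa2t3* (3.65), *Stat5a* (3.25) and *Zfpm1* (2.43), which encodes a GATA1 partner, were also higher. *Klf3* (-2.38) and *Klf4* (-3.85), relatives of *Klf1*, were lower with 3 and 1 UMIs in the class. *Bcl11a*, which encodes a repressor of embryonic globin genes in later blood, had no UMI in the class and 93 outside, so it was lower by at least 1.17 on the log2 scale.

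Of the red cell membrane genes, 8 of 9 were at least 2-fold higher (median 5.37). *Gypc* was at 61.9 against 0.867 CPM (6.16 [5.37 to 7.03]), *Sptb*, of β-spectrin, at 33.5 against 0.813 CPM (5.37 [4.497 to 6.32]), and *Epb42* had 22 UMIs in the class and none outside. *Tmod1* (5.71), *Dmtn* (3.70), *Icam4* (3.33) and *Epb41* (1.40) passed the fold too, and *Rhd* (0.46 [-2.68 to 2.50]) did not. The other globin genes and the α-chain chaperone gave little, since *Ahsp*, *Hbb-bh2*, *Hbq1a* and *Hbq1b* were unlisted and *Mb*, *Cygb* and *Ngb* had no UMI in the class.

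In the earlier blood progenitor-like cells the ratios of *Cpox* and *Fech* had intervals that include 0. At OB-EB, *Cpox* was at 57.1 CPM against 39.5 CPM outside (0.53 [-0.09 to 1.09]) and *Fech* at 19.04 against 10.9 CPM (0.80 [-0.36 to 1.77]). The regulators were apart, with *Lmo2* at 374 CPM (6.03 [5.62 to 6.46]) and *Gata1* at 36.0 CPM (4.19 [3.20 to 5.16]). *Lmo2* served to name the blood progenitor-like cluster, so its excess is not a finding. In these cells *Klf1* was at 4.23 CPM (3.31 [-0.08 to 5.92]). Between the OB-EB blood progenitor-like and the EHF erythroid-like cells, the log2 ratio was 7.66 for *Hbb-bh1* [6.68 to 8.87], 4.25 for *Klf1* [2.36 to 7.31] and 2.62 for *Gata1* [1.91 to 3.42]. These ratios compare 2 libraries, and *Gata1* served to name the erythroid-like class, so its ratio is not a finding.

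Among the genes whose pattern over all 3494 EHF cells was most like the summed embryonic globins were *Cited4* (r = 0.65), *Gata1* (0.53), *Lmo2* (0.53), *Car2* (0.46), *Smim1* (0.43), *Ikzf1* (0.43), *Nrip3* (0.42) and *Fgf3* (0.41), out of 12004 genes with a UMI in at least 1% of cells. At OB-EB, with 6 embryonic globin cells, the highest was *Prkar2b* (r = 0.18), and at MS-LS, with 29 such cells, *Sertad4* (0.14). At such counts these weak values are no finding.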

How the data were processed

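Single-cell transcriptomes of 3 stages were analysed. The authors prepared libraries with the Chromium 3′ assay, counted UMIs with Cell Ranger 3.0.2 on GRCm38 with reporter sequences added, and removed barcodes with under 500 genes, under 1000 UMIs or a high mitochondrial share (Seurat 3 in R 3.6.1). They deposited raw UMI counts per gene and cell, not normalized, which were used as deposited.

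Cells were clustered with Seurat 5.3.0 (log-normalized to 10000, 2000 variable genes without the members and the reporter, 50 principal components, resolution 4.5). A cluster took the name of the best of 17 marker lists if at least 3 markers were detected and no other list had more genes among its 10 leading genes. Cells are not replicates, so no test was made: UMI sums have exact Poisson intervals, shares Clopper-Pearson intervals and ratios exact conditional binomial intervals. A set with 0 UMIs was put at 3 UMIs over the set for a bound. List genes needed 20 UMIs over both sets. The ratio was tested on simulated counts for the erythroid-like comparison (9371 genes): 200 of 200 changed genes had the right direction, and 96.1% of intervals held the true value. This is the number of genes with at least 100 UMIs, below the 13391 compared from 20 UMIs up. The simulation is therefore not taken to speak for ratios from lower counts. Scrublet called 6, 0 and 13 doublets, too few to be relied on, and no cell was removed. Named genes were the members, list genes past the fold or with at least 100 UMIs in the erythroid-like class, and the 10 genes most correlated with the embryonic globins per stage. Some genes that met this rule are not reported here. Members and lists were chosen with earlier results of these data known. Alternatives changed doublets, depth, clustering, reference cells, thresholds and totals.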

Additional observations from a re-analysis of the deposited data

How the results depend on the processing

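Alternatives to the processing kept the sign of every result computed under them, but for OB-EB over MS-LS the interval came to include 0. The share of EHF cells with at least 10 globin UMIs (4.44%) was 5.55% at a threshold of 5 UMIs, 2.60% at 20 UMIs and 1.74% with cells thinned to 1500 UMIs. The summed globin level of the erythroid-like class (3788 CPM) was 3618 CPM with the members allowed among the variable genes and 3630 CPM at resolution 2. In alternatives added after seeing the data it was 3351 CPM without cluster 26 and 3245 CPM in cells called female. Its log2 ratio over Exe ectoderm-like cells (7.29) was 6.96 over all cells outside the blood-forming classes. The summed globin log2 ratio of OB-EB over MS-LS was -1.61 [-2.56 to -0.76] over all globins that either table lists, and -1.18 without the top cell of each library. Both values count globins that a table does not list as 0, so they do not compare like sums. Over the globins that both list, a restriction added after seeing the data, the ratio was -0.23 [-1.45 to 0.92]. Levels without the top 1 or 2 cells were added then too. The number of list genes at least 2-fold higher (32 of 58) was 19 of 43 with at least 100 UMIs required, since fewer genes were then tested. The cause of the other differences was not tested. Of the remaining values for these summed results, 47 stayed within the interval of the main value or, for counts of genes, within 1.5 times it.

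No paired analysis was possible because each stage is 1 library and the pair of EHF tables holds the same counts. Leaving out a replicate was not possible for the same reason. Depth limits the early stages, where a cell with no globin UMI is not shown to lack the transcript. The adult-type globin copies share most of the 98-base windows near their 3′ ends. Intervals cover counting error and not differences between embryos.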
